A study of Homo sapiens with 14 samples.

Results

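The 4 libraries described here are the vehicle controls of a 14-library total RNA sequencing series on HCT116, a human colon carcinoma cell line. They were chosen by their titles: 2 libraries from cells given DMSO beside a treatment with Nutlin, called the Nutlin-set vehicle here, and 2 from cells given DMSO beside a time course, called the time-course vehicle. The titles do not print a set name. The word control stands in the titles of one DMSO pair and of one pair with 5-Ph-IAA, and was read here as control to the libraries whose titles name Nutlin in its place. All 14 libraries come from the line HCT116 osTIR1(F74G) SAF-A-mAID-Halo, so the controls carry the plant-derived receptor osTIR1(F74G) and the degradation tag on SAF-A as well. SAF-A is the nuclear RNA-binding protein encoded by HNRNPU, and 5-Ph-IAA is the auxin analogue that triggers its degradation. The same contrast was also made in libraries that the vehicle comparison did not use, to see whether differences between the sets recurred. It compared the Nutlin-set cells given 5-Ph-IAA for 3 h (2 libraries) with the time-course cells given it for 3 h (2 libraries). The labels do not say whether the line is a single clone, whether replicates came from separate cultures, or when each set was grown and sequenced. The p-values therefore measure only the spread between these samples, which may be technical.

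HCT116 is an epithelial tumour line. In the Wnt pathway, secreted ligands bind Frizzled and LRP receptors and block the complex of APC, AXIN and GSK3 that marks beta-catenin for destruction. Stabilised beta-catenin then joins TCF factors at target genes, and HCT116 carries an activating change in the beta-catenin gene CTNNB1. In the normal colon this pathway maintains the crypt stem cells, and its decline goes with differentiation into absorptive and mucus-secreting cells.

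The libraries held 15.6M and 13.2M expected counts (M for 1e+06) in the Nutlin-set vehicle, against 33.7M and 34.1M in the time-course vehicle, so the Nutlin-set values have the larger counting error. Mean fragment length was 226.9 and 223.3 bases in the Nutlin-set vehicle and 251.3 and 240.3 bases in the time-course vehicle. Mean GC content of the genes weighted by count was 48.9% and 48.3% in the Nutlin-set vehicle, and 48.2% and 48.0% in the time-course vehicle. Set, depth, fragment length and GC content follow the same split, so they cannot be told apart as sources of a difference between the pairs. Within pairs, the log2 CPM (normalised counts per 1e+06) of 17522 genes correlated at r = 0.982 in the Nutlin set and 0.968 in the time course. Between the pairs the correlation was 0.957 to 0.964. HNRNPU, the tagged gene (chromosome 1, 244840638 to 244864560, minus strand, GRCh38), was present at 132 and 152 TPM (RSEM transcripts per 1e+06, corrected for length) in the Nutlin-set vehicle and 109.97 and 121 TPM in the time-course vehicle. Its difference in normalised counts did not pass the test (log2 fold change 0.18 ± 0.067 SE, edgeR adjusted p = 0.0958). It passed under 6 alternatives, with a value of 0.37 under GC correction.

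By TPM, the most abundant transcripts were small structural RNAs, which a total RNA kit keeps. Per length, RN7SL1 came first with 165920 and 149496 TPM in the Nutlin-set vehicle, against 147609 and 144386 TPM in the time-course vehicle. RN7SL1 and RN7SL2 encode the RNA of the signal recognition particle (7SL), which guides secreted proteins to the endoplasmic reticulum. RN7SK, the RNA that holds the elongation factor P-TEFb inactive, had 128888 and 129137 TPM in the Nutlin-set vehicle and 113116 and 99657 TPM in the time-course vehicle. RMRP and RPPH1, the RNA subunits of RNase MRP and RNase P, followed after RN7SL2. The range over the 4 libraries was 29919 to 47007 TPM for RMRP and 20320 to 29730 TPM for RPPH1. All structural small RNAs of the list together took 51.8% and 45.2% of TPM in the Nutlin-set vehicle and 43.8% and 42.8% in the time-course vehicle. Because TPM sums to a fixed total, this lowers the TPM of every other gene most in the first Nutlin-set library. TPM divides by effective length, which is transcript length less fragment length, and so rises steeply for RNAs about as short as the fragments. In the first Nutlin-set library, the 200-base RNA BCYRN1 had 239 TPM from 64 counts, and the 541-base RNA TERC 249 TPM from 1428. Fragment length differed between the sets, so the TPM of such short RNAs is not comparable between them. By counts, which are not divided by length, the structural small RNAs of the list took 7.53% and 5.82% in the Nutlin-set vehicle. The time-course vehicle had 5.10% and 5.15%. Coding genes took 89.8% and 91.4% of counts in the Nutlin-set vehicle and 92.4% in each time-course library.

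RN7SL1 and RN7SL2 are the most abundant pair by TPM and are hard to separate by short reads. The transcripts matched in 295 of 300 aligned columns (98.3%), with 4 differing bases and 1 gap. The split of reads between them is therefore uncertain, while their share with RN7SL3 of all TPM was 30.5% and 26.1% in the Nutlin-set vehicle and 26.0% and 26.6% in the time-course vehicle.

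Among protein-coding genes, EEF1A1, which delivers aminoacyl-tRNA to the ribosome, was the highest. It had 6516 and 7417 TPM in the Nutlin-set vehicle and 8718 and 8948 TPM in the time-course vehicle. RPS27 and RPS18, proteins of the small ribosomal subunit, had 3307 and 3554 TPM and 2793 and 2994 TPM in the Nutlin-set vehicle, against 4661 and 4481 TPM and 4075 and 4061 TPM in the time-course vehicle. The calcium-binding protein gene S100A6 had 2872 and 3108 TPM in the Nutlin-set vehicle and 4547 and 4361 TPM in the time-course vehicle. In all of these the time-course libraries were the higher ones, without overlap. GAPDH, a glycolytic enzyme, stood at 2935 and 3114 TPM in the Nutlin-set vehicle and 3003 and 3066 TPM in the time-course vehicle, with overlapping pairs. Other coding genes among the 25 most abundant encode the ribosomal proteins RPL37A, RPL26, RPL30, RPS23, RPLP0, RPL41, RPL35, RPS20 and RPS2, the actin-binding thymosin TMSB10, the prolyl isomerase PPIA and the histone H2BC4. An antisense entry without a symbol (ENSG00000269968.2) also ranked among them with 4126 to 5065 TPM, and its reads may belong in part to a gene on the other strand. These 25 genes held 51.3% of all TPM on average, and the 25 highest coding genes held 13.8% once TPM was rescaled over coding genes.

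**Figure D1:**
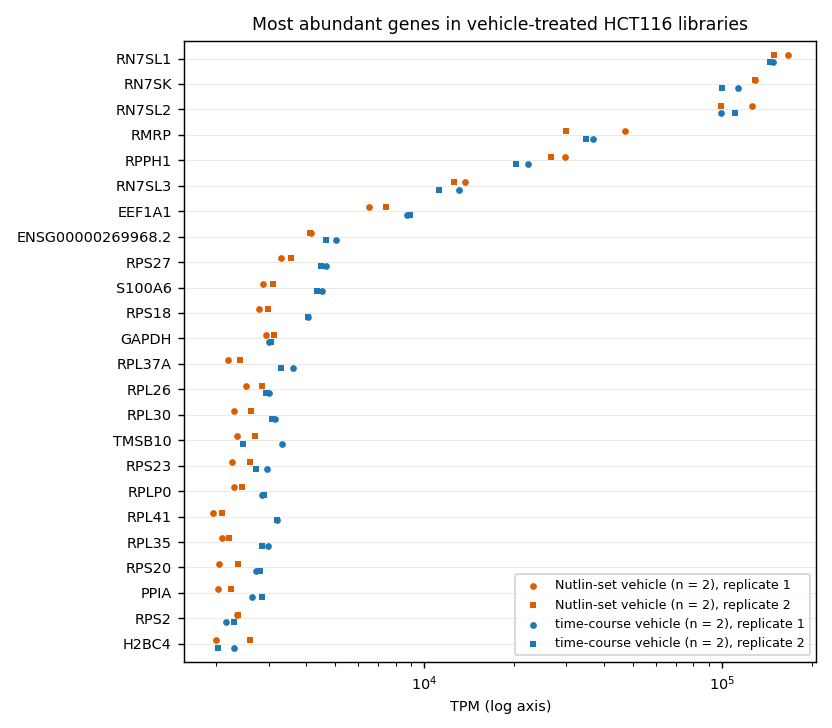
The plot shows TPM (log axis) of genes among the 25 with the highest mean over the 4 vehicle libraries, with Nutlin-set replicates in orange and time-course replicates in blue. The 6 highest are structural RNAs, from RN7SL1 at 144386 to 165920 TPM down to RN7SL3 at 11213 to 13678 TPM, and most ribosomal protein genes lie higher in the time-course libraries.

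In all, 11645 of 78686 gene entries reached 1 TPM in every vehicle library, and 10389 of these are among the 19827 coding genes matched to the annotation. A further 46012 entries were listed at 0 in all 4. Between 12810 and 13647 entries per library reached 1 TPM, and the shallower Nutlin-set libraries had 13000 and 13647, against 12810 and 13022 in the time-course vehicle.

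The vehicle pairs were compared gene by gene on expected counts. Of 17522 genes tested, 3207 (18.3%) differed at an adjusted p of 0.05 by edgeR's quasi-likelihood test with Benjamini-Hochberg adjustment. Of all tested genes 1199 (6.84%) were higher and 2008 (11.5%) lower in the Nutlin-set vehicle. The differences were mostly small: the median size was 0.52 on the log2 scale among called genes, and 433 changed at least 2-fold, 216 higher and 217 lower. The median over all tested genes was 0.011. The split between directions depends on scaling: with upper quartile factors it was 1535 higher and 1520 lower, and with total counts alone 1769 higher and 1268 lower, where the median gene stood at 0.105. Calls fell to 891 without the first Nutlin-set library and 1022 without the second, and reached 5888 and 5216 without the first and the second time-course library. The gene groups below are read against the shares of 6.84% and 11.5%, which themselves varied with expression level and transcript length, as given further below.

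The defining epithelial markers were present in every library. KRT8 and KRT18, the paired keratins of simple epithelia, reached 1271 and 1410 TPM and 859.8 and 1019.8 TPM in the Nutlin-set vehicle, against 1719 and 1792 TPM and 1088 and 956 TPM in the time-course vehicle. The epithelial adhesion molecule EPCAM had 125 and 158 TPM in the Nutlin-set vehicle and 135 and 142 TPM in the time-course vehicle. CDH1, which encodes E-cadherin of adherens junctions, had 14.4 and 20.2 TPM in the Nutlin-set vehicle, against 7.34 and 6.80 TPM in the time-course vehicle. CDH1 was the lowest of these 4 genes per length in every library, and 28 of 30 epithelial genes were at 1 TPM or more in every library.

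CDH1 was 2.01-fold higher in the Nutlin-set vehicle by normalised counts, with 87.4 and 87.4 CPM against 45.3 and 41.8 CPM in the time-course vehicle (log2 fold change 1.01 ± 0.089 SE, edgeR adjusted p = 0.000686). The junction and desmosome genes JUP, ST14 and DSP differed by 0.54, 0.54 and 0.44 in the same direction. In contrast, the keratins KRT8, KRT19 and KRT7 were lower in the Nutlin-set vehicle, by log2 fold changes of -0.49, -0.50 and -0.78, as was the epithelial transcription factor EHF at -0.77. KRT18 and EPCAM did not pass the test, with log2 fold changes of -0.20 (edgeR adjusted p = 0.159) and -0.14 (edgeR adjusted p = 0.219). Of 28 epithelial genes tested, 9 were higher and 4 lower, with a median of 0.16. Over the list, the higher calls were 3 and 5 without the first and the second Nutlin-set library.

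Differentiated colon cells left little trace. Of 30 genes of absorptive, mucus and enteroendocrine cells, 29 were below 1 TPM in all 4 libraries and 14 were listed at 0 in all 4. The carbonic anhydrase gene CA2 was the exception, with 10.42 and 12.68 TPM in the Nutlin-set vehicle and 9.69 and 10.02 TPM in the time-course vehicle. Among intestinal transcription factors, CDX2 had 1.31 to 2.21 TPM over the 4 libraries, with overlapping pairs, while CDX1 was listed at 0 throughout and HNF4A stayed at 0.03 to 0.25 TPM. KLF5 and SOX9, factors of proliferating crypt cells, and the Notch target HES1 were lower in the Nutlin-set vehicle, with log2 fold changes of -0.85, -0.71 and -0.87. These were counted at 19.1 and 19.1 CPM for KLF5, 15.2 and 16.4 CPM for SOX9, and 7.42 and 6.23 CPM for HES1 in the Nutlin-set vehicle. The time-course vehicle had 31.2 and 37.7 CPM for KLF5, 22.7 and 29.1 CPM for SOX9, and 12.9 and 12.2 CPM for HES1. The SOX9 and HES1 calls were lost without either Nutlin-set library.

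Crypt stem cell markers split. LGR5, the R-spondin receptor that marks crypt base stem cells, was at 0 to 0.02 TPM, and ASCL2 and OLFM4 were listed at 0. The adhesion receptor CD44 had 162 and 197 TPM in the Nutlin-set vehicle and 122 and 163 TPM in the time-course vehicle, overlapping and with no call (edgeR adjusted p = 0.289). The polycomb gene BMI1 was lower in the Nutlin-set vehicle (log2 fold change -0.53, edgeR adjusted p = 0.00922), with 54.8 and 64.6 CPM against 86.6 and 86.1 CPM in the time-course vehicle. The stem-cell surface gene PROM1 was similar in range, at 9.03 and 13.1 TPM in the Nutlin-set vehicle and 10.9 and 9.21 TPM in the time-course vehicle. Of 17 crypt genes tested none was higher and 4 were lower, with a median of -0.03. The BMI1 call was lost without the first Nutlin-set library.

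Mesenchymal genes were mixed: 9 of 18 were below 1 TPM in all 4 libraries, and 4 reached 1 TPM in every library. VIM, the intermediate filament of mesenchymal cells, had 0.27 and 0.38 TPM in the Nutlin-set vehicle and 1.57 and 0.92 TPM in the time-course vehicle (log2 fold change -1.81, edgeR adjusted p = 0.0453, a call lost without either Nutlin-set library or without the first time-course library). The other call of this list went the opposite way. TAGLN had 4.09 and 5.36 CPM in the Nutlin-set vehicle against 1.14 and 1.82 CPM in the time-course vehicle (log2 fold change 1.67, edgeR adjusted p = 0.0168). That call was lost without either Nutlin-set library. S100A4, also used as a mesenchymal marker, was high in every library at 658 to 771 TPM. ITGA5, FN1 and ZEB1 had 8.58 to 11.28, 3.40 to 5.81 and 1.05 to 1.90 TPM. Of 36 defining genes of fibroblasts, blood, endothelium, liver, neurons, muscle and melanocytes, 33 were below 1 TPM in all 4 libraries and 12 were listed at 0 in all 4. The summed TPM of this list was 9.18 and 11.6 in the Nutlin-set vehicle and 5.37 and 6.5 in the time-course vehicle, of which the melanosome gene PMEL made 1.60 to 3.00 TPM. The lysosomal gene CD68, also used as a macrophage marker, had 3.21 and 3.68 TPM in the Nutlin-set vehicle and 0.02 and 0.29 TPM in the time-course vehicle (log2 fold change 3.84 ± 0.725 SE, edgeR adjusted p = 0.00945). The other leukocyte genes of the list stayed at 0 to 0.41 TPM. Among them, PTPRC was listed at 0 throughout, CSF1R had 0 to 0.03, CD14 0 to 0.07 and LYZ 0.04 to 0.41 TPM. In bulk RNA, fewer cells of a type and less RNA per cell cannot be told apart.

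**Figure D2:**
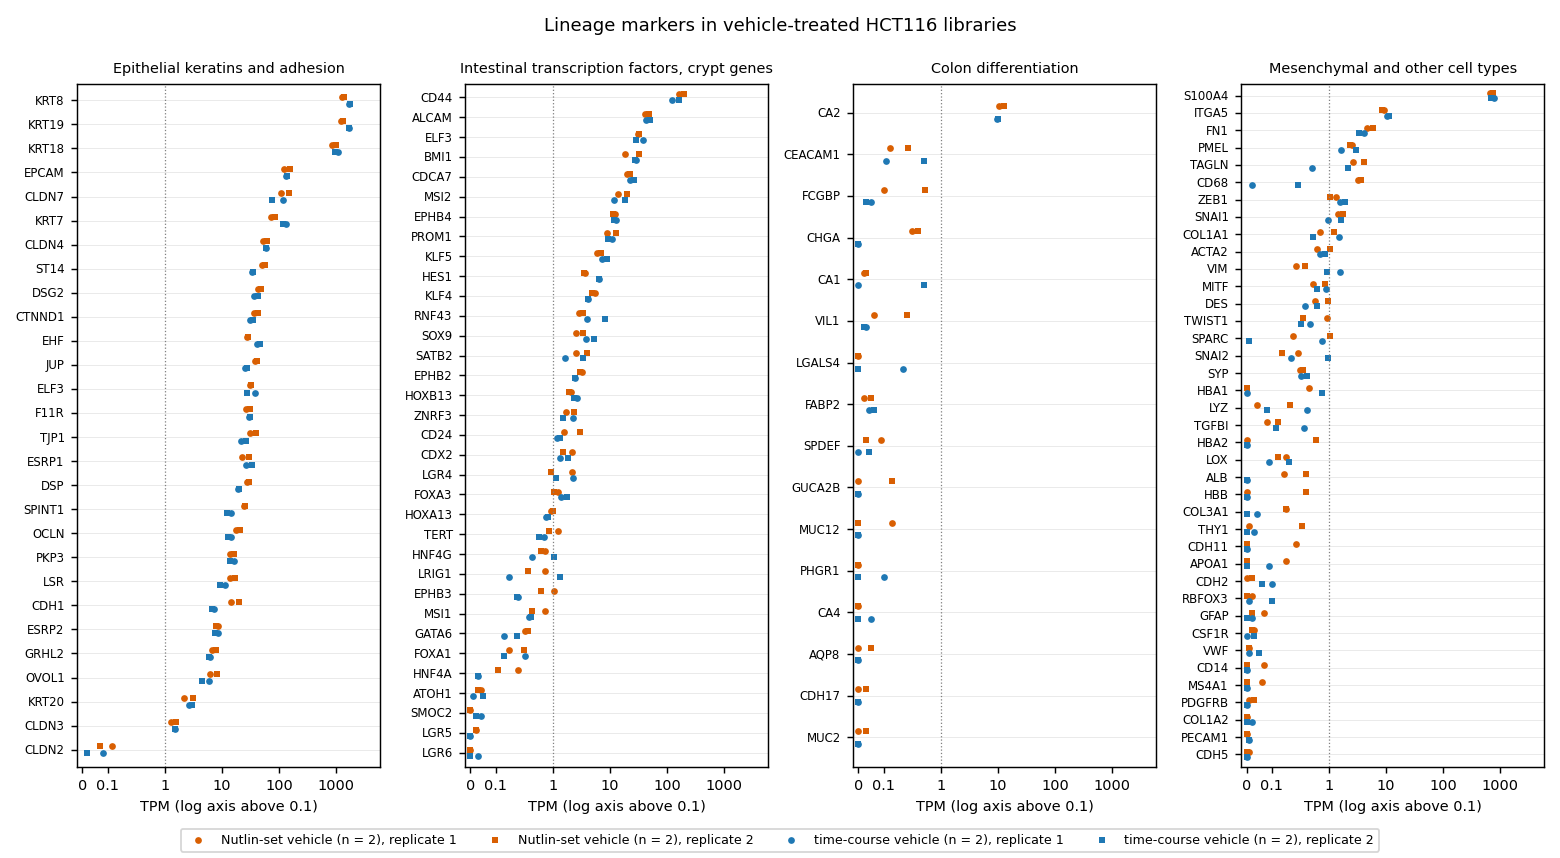
Each panel plots TPM (log axis above 0.1) of marker genes in the vehicle libraries, Nutlin-set replicates in orange and time-course replicates in blue, with a dotted line at 1 TPM and genes at 0 in all 4 left out. Nearly all epithelial genes drawn lie to the right of that line, while among the colon differentiation genes CA2 alone does so in every library.

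Wnt pathway genes were examined by role. Among 23 ligand and secretion genes, WNT16 stood out. WNT16, a secreted ligand, had 13.97 and 15.02 TPM in the Nutlin-set vehicle and 49.04 and 50.69 TPM in the time-course vehicle. By normalised counts it had 44.8 and 42.5 CPM in the Nutlin-set vehicle against 191 and 194 CPM in the time-course vehicle (log2 fold change -2.14 ± 0.083 SE, edgeR adjusted p = 1.08e-05). It was the only called gene of the 11 ligand and secretion genes tested. The Wnt carrier WLS, needed to export ligands, had 17.8 and 15.3 TPM in the Nutlin-set vehicle and 13.6 and 12.1 TPM in the time-course vehicle, with no call (edgeR adjusted p = 0.584). Of the 23 genes, 16 were below 1 TPM in every library.

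Of 22 receptor and adaptor genes, 13 reached 1 TPM in every library and 5 were below 1 TPM in all 4. The Frizzled receptor FZD6 had 18.4 and 21.8 TPM in the Nutlin-set vehicle and 24.7 and 23.8 TPM in the time-course vehicle, and was lower in the Nutlin-set vehicle (log2 fold change -0.50, edgeR adjusted p = 0.00647). The co-receptors LRP6 and LRP5 did not pass the test, at log2 fold changes of -0.05 and -0.15. DVL2, a Dishevelled adaptor, and the receptor FZD4 were higher in the Nutlin-set vehicle at 0.59 and 0.53, and both calls were lost without either Nutlin-set library, as was that of FZD6 without the first. The FZD4 call was also lost with DESeq2, GC correction and thinning. Of 18 receptor genes tested 2 were higher and 1 lower, with a median of -0.05.

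In the destruction complex, APC, its scaffold, had 8.63 and 10.9 TPM in the Nutlin-set vehicle and 7.68 and 8.42 TPM in the time-course vehicle. AXIN2, a scaffold and also a pathway target, had 2.06 and 2.96 TPM in the Nutlin-set vehicle and 2.04 and 1.41 TPM in the time-course vehicle. Neither differed past the threshold by counts. The kinase genes GSK3B and CSNK1D were higher in the Nutlin-set vehicle (log2 fold changes 0.42 and 0.56), and the ubiquitin ligase subunit FBXW11 was lower at -0.26 with an edgeR adjusted p of 0.05, a call lost under 10 of the alternatives. The GSK3B call was lost without the second Nutlin-set library, and the CSNK1D call without either. For GSK3B, TPM did not follow the counts, at 23.7 and 30.1 in the Nutlin-set vehicle and 29.5 and 26.2 in the time-course vehicle. The cause was not tested.

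CTNNB1, which encodes beta-catenin, had 143 and 164 TPM in the Nutlin-set vehicle and 172 and 179 TPM in the time-course vehicle. Its counts were lower in the Nutlin-set vehicle (log2 fold change -0.29 ± 0.063 SE, edgeR adjusted p = 0.0154). TCF7L2, the main TCF factor of intestinal epithelium, had 4.04 and 5.67 TPM in the Nutlin-set vehicle and 4.77 and 4.81 TPM in the time-course vehicle, while LEF1 was listed at 0. The acetyltransferase genes EP300 and CREBBP and the beta-catenin cofactor BCL9L were higher in the Nutlin-set vehicle, at 0.87, 0.78 and 0.77. The corepressor genes TBL1XR1 and TLE5 were lower, at -0.54 and -0.40. The list of beta-catenin, TCF and cofactor genes thus had 3 higher and 3 lower of 15 tested, with a median of 0.13. The BCL9L call was lost without the second Nutlin-set library, and those of BCL9L and CREBBP when all 14 libraries were fitted.

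Of 14 secreted inhibitors, 12 were below 1 TPM in every library, among them WIF1 and SFRP1 at 0 to 0.03 TPM. DKK1, which blocks LRP co-receptors, was the highest, with 278 and 364 TPM in the Nutlin-set vehicle and 346 and 361 TPM in the time-course vehicle. It was lower in the Nutlin-set vehicle by counts (log2 fold change -0.38, edgeR adjusted p = 0.0168), a call lost without the first Nutlin-set library and with total-count scaling. Pathway targets went both ways. The cyclin gene CCND1 had 759.6 and 816 CPM in the Nutlin-set vehicle against 567 and 513 CPM in the time-course vehicle (log2 fold change 0.54, edgeR adjusted p = 0.00353). MYC, a growth transcription factor, had 177 and 175 CPM in the Nutlin-set vehicle against 225 and 238 CPM in the time-course vehicle (log2 fold change -0.39, edgeR adjusted p = 0.00917). The AP-1 gene JUN was higher at 0.70, and RNF43, a ligase that removes Frizzled receptors, was lower at -0.68. Of 21 target genes tested 2 were higher and 4 lower, with a median of 0.13. The MYC call was lost without either Nutlin-set library, and the JUN and RNF43 calls without the first.

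**Figure D3:**
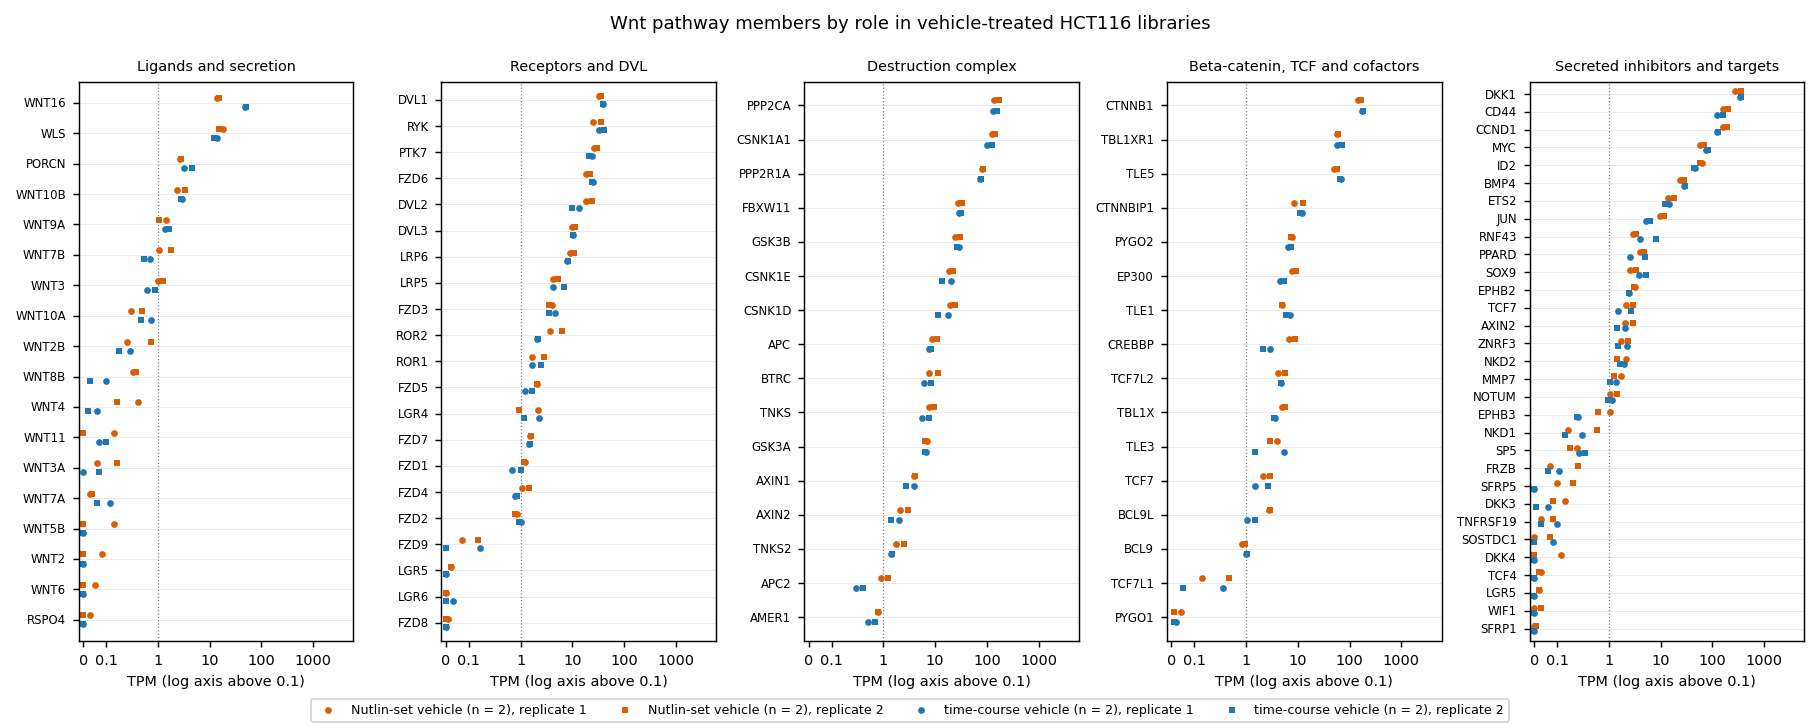
TPM (log axis above 0.1) of Wnt pathway genes by role, Nutlin-set vehicle in orange and time-course vehicle in blue, with a dotted line at 1 TPM and genes at 0 in all 4 libraries left out. WNT16 lies apart in the pairs, with 13.97 and 15.02 TPM in the Nutlin-set vehicle against 49.04 and 50.69 TPM in the time-course vehicle.

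All 40 G2 and mitosis genes and all 40 DNA replication genes were at 1 TPM or more in every library. The proliferation marker MKI67 had 694 and 662 CPM in the Nutlin-set vehicle against 322.5 and 372 CPM in the time-course vehicle (log2 fold change 0.97 ± 0.083 SE, edgeR adjusted p = 0.000636). Most called mitosis genes went the other way. HMMR, a spindle protein gene, had 80.1 and 86.3 CPM in the Nutlin-set vehicle against 144 and 156 CPM in the time-course vehicle, at a log2 fold change of -0.85. The cyclin CCNB1, its kinase CDK1, the cytokinesis genes ECT2 and PRC1 and the topoisomerase TOP2A were also lower, at -0.39, -0.40, -0.55, -0.37 and -0.36. KIF11 and FOXM1 were the other higher genes, at 0.55 and 0.59. The list had 3 higher and 17 lower of 40 tested, with a median of -0.22. The lower calls fell to 2 and 7 without the first and the second Nutlin-set library.

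Among G1/S regulators, CDKN1A, the cyclin-dependent kinase inhibitor p21 and a p53 target, had 193 and 191 CPM in the Nutlin-set vehicle against 346 and 349.9 CPM in the time-course vehicle (log2 fold change -0.86 ± 0.069 SE, edgeR adjusted p = 0.000471). The activator genes E2F2 and CCNE2 and the repressor E2F8 were higher in the Nutlin-set vehicle at 0.86, 0.60 and 0.61, and the kinase CDK4 was lower at -0.38. The list had 7 higher and 4 lower of 28, with a median of 0.20. In DNA replication, the origin licensing gene CDT1 and the polymerase POLE were higher at 0.69 and 0.50, and the clamp loader RFC5, the single-strand binding subunit RPA3 and the clamp PCNA were lower at -0.61, -0.57 and -0.35. That list had 6 higher and 4 lower of 40 and a median of 0.03, and the minichromosome maintenance gene MCM2 did not pass the test (log2 fold change 0.16, edgeR adjusted p = 0.155). The POLE and RPA3 calls were lost without the first Nutlin-set library. Replication-dependent histone genes, whose transcripts lack a poly(A) tail, had 15 higher and 1 lower of 51, with a median of 0.20. Many are near-identical copies, so their split among entries is uncertain.

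Among p53 targets none of 33 was higher and 17 were lower in the Nutlin-set vehicle, with a median of -0.45. RPS27L, a ribosomal protein paralogue, had 80.9 and 75.9 CPM in the Nutlin-set vehicle against 193 and 201 CPM in the time-course vehicle (log2 fold change -1.33 ± 0.080 SE, edgeR adjusted p = 0.000119). The cell death gene PMAIP1 had 63.9 and 72.0 CPM in the Nutlin-set vehicle against 170.3 and 172 CPM in the time-course vehicle (log2 fold change -1.33, edgeR adjusted p = 0.000181). The kinase PLK2 and the cyclin CCNG1 were lower at -1.06 and -0.79. MDM2, the ligase that Nutlin inhibits, was lower by -0.27 with an edgeR adjusted p of 0.0497, and the cell death gene BBC3 did not pass the test (log2 fold change -0.29, edgeR adjusted p = 0.406). Neither pair received Nutlin according to its titles. The lower calls were 12 and 11 without the first and the second Nutlin-set library.

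Genes of the integrated stress response, which is set off by amino acid shortage or unfolded proteins, had 2 higher and 11 lower of 33, with a median of -0.14. ASNS, which makes asparagine, had 73.0 and 69.2 CPM in the Nutlin-set vehicle against 166 and 183 CPM in the time-course vehicle (log2 fold change -1.29 ± 0.087 SE, edgeR adjusted p = 0.000194). The stress cytokine GDF15 had 41.7 and 35.6 CPM in the Nutlin-set vehicle against 114 and 105 CPM in the time-course vehicle (log2 fold change -1.50, edgeR adjusted p = 0.000233). The cystine carrier SLC7A11 was lower at -1.04, whereas CHAC1 and DDIT3 did not pass the test at -0.15 and -0.22. Without the first and the second Nutlin-set library the lower calls were 5 and 6.

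Growth signalling genes differed as well. Of 24 genes of the ERK feedback list 3 were higher and 11 lower, with a median of -0.22. EREG, a ligand of the EGF receptor, had 229 and 285 CPM in the Nutlin-set vehicle against 548 and 506 CPM in the time-course vehicle (log2 fold change -1.04, edgeR adjusted p = 0.0011). Immediate early genes had 10 higher and 4 lower of 27, with a median of 0.19. The AP-1 gene FOS had 103 and 77.7 CPM in the Nutlin-set vehicle against 38.5 and 31.2 CPM in the time-course vehicle (log2 fold change 1.38, edgeR adjusted p = 0.00162). The mRNA decay factor ZFP36 was also higher at 1.20, and the stress gene IER3 was lower at -0.75. The higher calls in this list were 3 and 4 without the first and the second Nutlin-set library.

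Cytosolic ribosomal protein genes were lower as a group: none of 79 was higher and 56 were lower in the Nutlin-set vehicle, with a median of -0.32. RPS3A had 1455 and 1382 CPM in the Nutlin-set vehicle against 2168 and 2163 CPM in the time-course vehicle (log2 fold change -0.61 ± 0.058 SE, edgeR adjusted p = 0.000943), and RPL41 differed by -0.65. Under the scaling alternatives the lower count was 42 with upper quartile factors and 40 with total counts, and it was 33 without the second Nutlin-set library. Of 15 mitochondrially encoded genes 6 were higher and none lower, with a median of 0.70. The pairs overlapped for MT-ND1, MT-ND2, MT-ND3, MT-ND6, MT-CO2, MT-ATP6, MT-RNR1 and MT-RNR2. The time-course libraries differed from each other for several of these, with 50.8 and 112 CPM for MT-CO2. MT-CO3, a subunit of cytochrome c oxidase, had 1196 and 1139 CPM in the Nutlin-set vehicle against 637 and 807 CPM in the time-course vehicle (log2 fold change 0.69, edgeR adjusted p = 0.00434). The mitochondrial share of counts was 0.326% and 0.289% in the Nutlin-set vehicle and 0.163% and 0.215% in the time-course vehicle. The higher calls were 13 without the second time-course library, and 8 with 3 lower without the first.

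Lipid and hypoxia genes were more often higher than lower. Cholesterol synthesis and related genes had 8 higher and 3 lower of 29, with a median of 0.03, and hypoxia and glycolysis genes 8 higher and 2 lower of 30, with a median of 0.20. The desaturase SCD had 960.5 and 935 CPM in the Nutlin-set vehicle against 567 and 608 CPM in the time-course vehicle (log2 fold change 0.69, edgeR adjusted p = 0.000961). The fatty acid synthase FASN was higher at 0.79, while HMGCS1, an early enzyme of cholesterol synthesis, did not pass the test at -0.20. The glycolytic genes ALDOC and HK2 and the hypoxia-induced gene NDRG1 were higher at 1.22, 0.82 and 0.81. Nuclear matrix and hnRNP genes, the functional neighbours of SAF-A, had 5 higher and 6 lower of 32, with a median of 0.12. In that list the splicing scaffolds SRRM2 and SON were higher at 0.96 and 0.50, and lamin A/C (LMNA) was lower at -0.50. The FASN and SRRM2 calls were lost when all 14 libraries were fitted. Heat shock genes had 5 higher and 6 lower of 21, interferon and RNA-sensing genes 2 higher and 2 lower of 21, and genes known to be altered in HCT116 2 higher and 3 lower of 17. Of the short lists, intestinal transcription factors had none higher and 3 lower of 13, mesenchymal genes 1 higher and 1 lower of 11, genes of other cell types 1 higher of 7, and secreted Wnt inhibitors 1 lower of 3. The 4 colon differentiation genes tested gave no call. Host genes of small nucleolar RNAs had 1 higher and 2 lower of 26, and structural small RNAs 4 higher and 1 lower of 20.

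**Figure D4:**
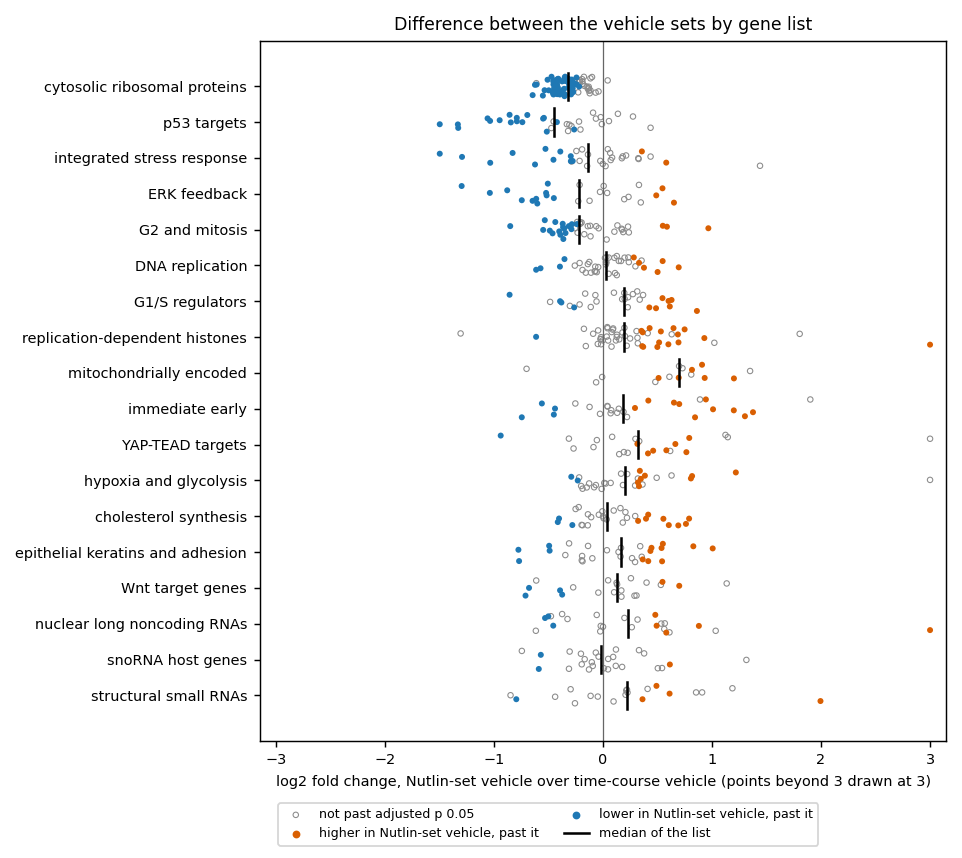
Each point is a tested gene of a list, placed by its log2 fold change of Nutlin-set vehicle over time-course vehicle, filled where the edgeR adjusted p was below 0.05, and the black bar is the median of the list. Medians range from -0.45 for p53 targets to 0.70 for mitochondrially encoded genes, and 56 of 79 ribosomal protein genes are lower.

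Among the listed nuclear long noncoding RNAs, MALAT1 had the highest mean TPM. This nuclear speckle RNA had 680.5 and 862 TPM in the Nutlin-set vehicle and 499.7 and 583 TPM in the time-course vehicle. It was higher in the Nutlin-set vehicle by counts (log2 fold change 0.48 ± 0.071 SE, edgeR adjusted p = 0.00414). NEAT1, the RNA that builds paraspeckles, was far lower at 22.4 and 30.4 TPM in the Nutlin-set vehicle and 19.3 and 18.8 TPM in the time-course vehicle, and did not pass the test (log2 fold change -0.02, edgeR adjusted p = 0.893). The imprinted antisense RNA KCNQ1OT1 and the nuclear RNAs TUG1 and UCA1 were higher at 0.88, 0.49 and 0.58, and the host RNA MIR100HG was lower at -0.50. LINC01405 had 4.59 and 4.13 CPM in the Nutlin-set vehicle against 0.339 and 0 CPM in the time-course vehicle. Of 24 nuclear long noncoding RNAs tested 5 were higher and 3 lower, with a median of 0.23. The LINC01405 and MIR100HG calls were lost without the first Nutlin-set library.

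Few cytoplasmic and host RNAs passed the test. GAS5, a host of small nucleolar RNAs, had 364 and 437 TPM in the Nutlin-set vehicle and 416 and 364 TPM in the time-course vehicle. ZFAS1 had 292 to 365 TPM over the 4 libraries, and NORAD, which binds Pumilio proteins, had 36.6 to 51.7 TPM. Of 16 cytoplasmic long noncoding RNAs tested none was higher and 1 was lower. SNHG29 had 524 and 505 CPM in the Nutlin-set vehicle against 760.4 and 769 CPM in the time-course vehicle (log2 fold change -0.57, edgeR adjusted p = 0.00171). SNHG3 was higher at 0.61. Among structural RNAs, RN7SK and RPPH1 were higher at 0.36 and 0.49, calls lost when all 14 libraries were fitted, that of RN7SK also with GC correction and that of RPPH1 also with DESeq2, whereas RN7SL1 and RMRP did not pass the test at 0.21 and 0.22. The Cajal body RNA SCARNA10 had 34.0 and 36.1 CPM in the Nutlin-set vehicle against 9.45 and 8.11 CPM in the time-course vehicle (log2 fold change 1.99 ± 0.132 SE, edgeR adjusted p = 0.000181), and SCARNA7 was lower at -0.80.

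The largest negative differences, given below, were in noncoding entries and gene copies, whereas the largest positive ones also included coding genes. Among the 12 higher ones with symbols, TUBA1B-AS1, antisense to a tubulin gene, had 182 and 178 CPM in the Nutlin-set vehicle against 25.03 and 30.1 CPM in the time-course vehicle (log2 fold change 2.705 ± 0.106 SE, edgeR adjusted p = 1.08e-05). The strand setting of the counting is not given in the sources used here, so its reads cannot be told from those of its partner. TEX14 and TEX19, genes known from the germ line, were higher at 2.60 and 1.95, the hormone gene AMH at 1.97 and the adhesion gene CLMP at 1.97. The AMH call was lost without either Nutlin-set library and that of CLMP without the first. H3C14, one of several near-identical histone genes, had 8.62 and 25.7 CPM in the Nutlin-set vehicle and was listed at 0 in the time-course vehicle. That is at least 200.2-fold higher by the mean, and at least 98.4-fold by the lower library, against a floor of 3 counts per library. The H3C14 call was lost when all 14 libraries were fitted. SLC2A3P1 was at least 82.5-fold higher on the same floor, and at least 44.5-fold by its lower library. The others were HMGN2P5, ANKHD1-EIF4EBP3, a readthrough entry, LY6G5B, whose call was lost without either Nutlin-set library, SCARNA10 and CD68.

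The 12 with the largest negative differences were 10 processed pseudogenes or similar copies, UQCRHL, an intronless copy of a respiratory chain gene, and the antisense entry MIF-AS1. RPL36AP37 had 1.76 and 2.17 CPM in the Nutlin-set vehicle against 34.0 and 43.5 CPM in the time-course vehicle (log2 fold change -4.31 ± 0.204 SE, edgeR adjusted p = 2.67e-05). HMGB1P5, RPS3AP21 and RPS27P3 were listed at 0 in the Nutlin-set vehicle, and were at least 46.6-fold, 14.3-fold and 13.5-fold lower there. Coding genes with large differences, named after their values were seen, included the chromatin remodeller SMARCA2, higher at 1.81. The urokinase gene PLAU, the ubiquitin ligase RNF182 and the calcium sensor VSNL1 were lower at -1.49, -1.70 and -1.54. PLAU had 38.8 and 39.3 CPM in the Nutlin-set vehicle against 119 and 99.8 CPM in the time-course vehicle.

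Processed pseudogenes are copies of spliced mRNAs, so reads from an abundant gene can be assigned to them. Of 414 tested, 13 were higher and 83 (20.05%) lower in the Nutlin-set vehicle. Of these, 306 could be paired by symbol with the gene they copy. Where that gene averaged above 1000 TPM, 3 of 85 pseudogenes were higher and 33 lower, with a median of -0.77, while the genes copied had a median of -0.36. Where it was at 50 TPM or less, 4 of 109 were higher and 7 lower, with a median of 0.65. EEF1A1P5 had 51.8 and 53.1 CPM in the Nutlin-set vehicle against 303 and 287 CPM in the time-course vehicle (log2 fold change -2.49 ± 0.081 SE, edgeR adjusted p = 9.37e-06), whereas EEF1A1 itself differed by -0.45. ANXA2P2 had 1.64 and 2.03 CPM in the Nutlin-set vehicle against 22.4 and 18.8 CPM in the time-course vehicle, at a log2 fold change of -3.49, and ANXA2 itself differed by -0.36. KRT8P3, NPM1P27 and RPS3AP6 were lower at -3.32, -3.28 and -2.67. Processed pseudogenes took 0.118% and 0.121% of counts in the Nutlin-set vehicle and 0.1996% and 0.198% in the time-course vehicle. Fragments were longer in the time-course libraries, as given above, and the part of fragment length in this difference was not tested.

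Windows of both pairs were picked where gene and copy differ at 1 base. A read that does not cover that base matches either sequence, and a read that covers it matches only its own. How reads were assigned was not tested. Capitals mark the base that differs. Positions count from 1 at the start of the coding sequence or of the pseudogene transcript, and both windows of EEF1A1 and EEF1A1P5 run from 234 to 353, those of ANXA2 and ANXA2P2 from 30 to 149. EEF1A1 lies on chromosome 6 (73515750 to 73523797, minus strand), EEF1A1P5 on chromosome 9 (133019486 to 133020874, plus strand), ANXA2 on chromosome 15 (60347134 to 60402883, minus strand) and ANXA2P2 on chromosome 9 (33624274 to 33625293, plus strand) of GRCh38.
EEF1A1: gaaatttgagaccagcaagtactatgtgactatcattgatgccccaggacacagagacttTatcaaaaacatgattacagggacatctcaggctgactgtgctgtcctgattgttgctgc
EEF1A1P5: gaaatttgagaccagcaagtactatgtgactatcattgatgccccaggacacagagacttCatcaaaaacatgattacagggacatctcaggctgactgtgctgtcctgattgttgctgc
ANXA2: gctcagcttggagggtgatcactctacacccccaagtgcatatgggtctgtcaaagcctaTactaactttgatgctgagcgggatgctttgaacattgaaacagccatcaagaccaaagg
ANXA2P2: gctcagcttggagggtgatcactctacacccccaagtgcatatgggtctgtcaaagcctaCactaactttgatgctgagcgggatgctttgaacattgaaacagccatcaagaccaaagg
Over the coding sequence, EEF1A1P5 differs from EEF1A1 at 4 of 1386 bases (99.7% identity) and ANXA2P2 from ANXA2 at 16 of 1017 (98.4%).

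The set difference also followed expression level, base composition and length across genes, which are not independent replicates. Genes with a mean log2 CPM below 0 had a median of 0.46, with 53 higher and 33 lower of 3009. Those between 6 and 8 had a median of -0.10, with 290 higher and 721 (25.4%) lower of 2842. Those above 8 had a median of -0.18, with 55 higher and 255 (41.0%) lower of 622. Abundant groups such as the ribosomal protein genes are to be read beside these shares. Genes with a GC content of 35% or less had a median of -0.35, with 4 higher and 96 lower of 286. Those between 50% and 55% had a median of 0.10, with 274 higher and 192 lower of 2517. Coding genes with a longest transcript of up to 1000 bases had a median of -0.23, and those over 8000 bases a median of 0.16. With a correction for GC content in limma, 3281 genes were called, 1312 higher and 1969 lower. The median GC content was 45.5% for the mitosis list, 47.2% for p53 targets and 55.9% for the epithelial list, and the part of GC content in the list differences was not tested. That fit shared 2457 called genes with edgeR, and in it the mitosis list had 17 lower genes with a median of -0.15, and p53 targets had 19 lower.

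The same contrast in the 3 h 5-Ph-IAA libraries shares no library with the vehicle comparison. Of 17427 genes tested there, 5004 (28.7%) were called, 2079 (11.9%) higher and 2925 (16.8%) lower in the Nutlin set. Of 3177 vehicle calls that were tested in both, 3126 (98.4%) had the same sign in the treated libraries, beside 77.8% of all 16691 genes tested in both. Of the calls, 2514 passed in the same direction in both (883 higher and 1631 lower), which is 79.1% of the vehicle calls and 50.8% of the treated ones, and 5 were called in opposite directions. Across the genes in both, the log2 fold changes correlated at r = 0.59. The treated Nutlin-set libraries were again the shallower ones. Their mean fragment length was 230.4 and 224.7 bases, against 236.7 and 240.6 bases in the treated time course. Set, depth and fragment length thus follow the same split in both comparisons. A shared sign therefore cannot tell them apart as sources of the difference, and their parts were not tested. WNT16 had 43.4 and 36.5 CPM in the treated Nutlin set against 172 and 171 CPM in the treated time course (log2 fold change -2.10). CDKN1A, MKI67 and CDH1 differed by -0.98, 0.97 and 0.81 there, and EEF1A1P5 by -2.50. Group medians in the treated libraries were as follows: ribosomal protein genes had -0.32 with 67 of 79 lower, p53 targets -0.47 with 21 of 33 lower, and mitochondrially encoded genes 0.73 with 11 of 15 higher. Mitosis genes had 7 higher and 18 lower of 40, integrated stress response genes 4 higher and 15 lower of 33, and ERK feedback genes 3 higher and 13 lower of 24. Hypoxia and glycolysis genes had 17 higher and 5 lower of 30, and cholesterol synthesis genes 11 higher and 1 lower of 29. Other lists had a different balance from that in vehicle. Immediate early genes had 8 higher and 9 lower of 27, and histone genes 12 higher and 8 lower of 51 with a median of 0.03. Epithelial genes had 7 higher and 7 lower of 28, and structural small RNAs 4 higher and 5 lower of 20. Wnt target genes had 6 higher and 4 lower of 22, and destruction complex genes 6 higher and 1 lower of 16.

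Several vehicle calls did not pass in the treated pair. RN7SK differed by -0.03 and RPPH1 by -0.04 there, and H3C14 by -1.29 (edgeR adjusted p = 0.516). Among Wnt pathway genes, RNF43 differed by 0.15 (edgeR adjusted p = 0.34) and JUN by 0.03 (edgeR adjusted p = 0.786). BCL9L differed by -0.14 (edgeR adjusted p = 0.552). NEAT1, with no call in vehicle, was higher by 0.65 in the treated Nutlin set (edgeR adjusted p = 0.000541). When the difference between the set contrasts was itself tested, 12 of 18873 genes (0.0636%) passed. RN7SK, RPPH1, NEAT1, RNF43, JUN and BCL9L were not among them. Without the low-count filter 177 passed. YAP-TEAD targets, genes induced by the Hippo pathway effectors, gave different counts: 7 of 22 were higher and 1 lower in vehicle with a median of 0.32, and 7 were higher and 10 lower with a median of -0.27 in the treated libraries. The difference between these list values was not tested as a whole.

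**Figure D5:**
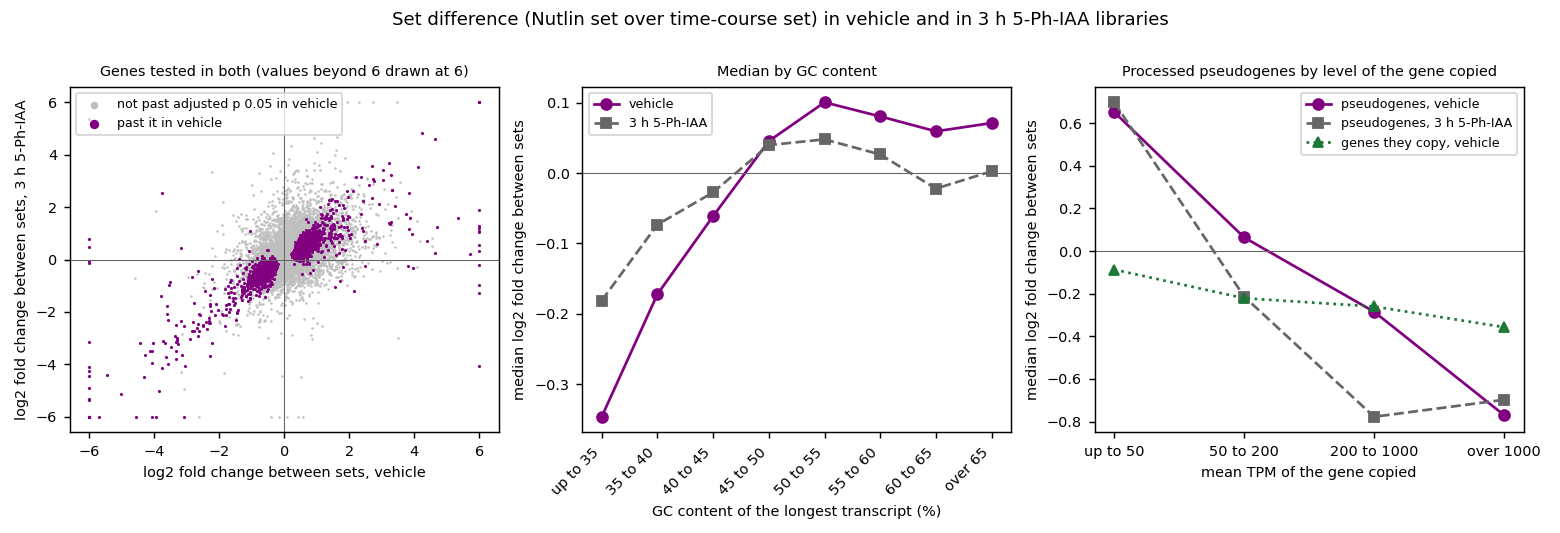
The left panel plots each gene's log2 fold change of Nutlin set over time-course set in vehicle (x axis) and in 3 h 5-Ph-IAA libraries (y axis), the middle panel the median log2 fold change by GC content, and the right panel that of processed pseudogenes by the TPM of the gene they copy. Medians fall to -0.35 at the lowest GC content in vehicle, and to -0.77 for copies of genes above 1000 TPM, below the -0.36 of the genes themselves.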

How the data were processed

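Total RNA (0.5 ug, Trizol, Illumina TruSeq Stranded Total RNA Gold kit, per the labels' protocols) was sequenced in 14 libraries. STAR 2.7.10b, RSEM and DESeq2 1.48.1 and the build hg38 (GRCh38) are named in the submitters' processing notes, and the annotation release is not given in the sources used here. The deposited tables hold, per the file headers, RSEM expected counts, TPM and transcript lengths for 78686 gene entries. TPM, deposited by the authors, was used for levels, and the FPKM deposited beside it was not used. The deposited length columns, treated as a signal in bases, gave the mean fragment length and enter no test.

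The deposited expected counts were rounded to whole numbers, filtered with filterByExpr (minimum count 10, minimum total 15), scaled by TMM and tested with edgeR 4.0.16 (glmQLFit, glmQLFTest, R 4.3.3) on the 4 vehicle libraries with 2 residual degrees of freedom, with Benjamini-Hochberg adjustment at 0.05. Standard errors were taken as the log2 fold change over the square root of F. The 3 h 5-Ph-IAA libraries were tested likewise, and the difference between both contrasts as an interaction over 8 libraries. The test was checked on simulated data with 200 changed genes. Alternatives were DESeq2 1.42.0, limma 3.58.1 with a GC correction, other scalings, filters, thinning, a replicate block and leaving out each library. Tables were made with Python 3.11.15, pandas 2.3.3, numpy 2.4.6 and Biopython 1.88.

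Symbols were found for 42165 entries (53.6%), and positions, biotypes, GC content and sequences for 57288 (72.8%) from GENCODE 29 on GRCh38. GC content was known for 91.3% of tested genes. The members and the 33 gene lists were chosen with earlier results of these data known. Named genes are HNRNPU, the 25 most abundant, list members, and up to 12 in each direction with the largest fold change among called genes with a symbol, a mean log2 CPM of at least 1 and pairs without overlap. Up to 4 called members per list were named by p, others from the lists after their values were seen. A few genes and sequences are not reported here.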

Additional observations from a re-analysis of the deposited data

Results flagged for a closer look

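The difference between both set contrasts (vehicle minus 3 h 5-Ph-IAA, log2, edgeR interaction test) was positive for all 12 genes that passed in the main setting. All calls were also positive with the other scalings, thinning or a replicate block. With DESeq2, however, 39 were positive and 8 negative, with GC correction 15 and 2, and without the low-count filter 126 and 51. The growth factor and protease genes AREG and PLAU stood at 0.83 each: AREG was lower in the Nutlin set by -0.60 in vehicle and -1.42 in treated libraries, and PLAU by -1.49 and -2.31. AREG had 80.9 and 82.2 CPM in the treated Nutlin set against 222 and 219.5 CPM in the treated time course. Of 22 settings, AREG and DUSP5 passed under 22, THBS1 under 20, SEMA7A under 19, EPHA2 under 18, SLC2A3P1 under 16, H4C11 under 13, CCN1 under 11, AMOTL2 and PLAU under 10 and C1orf116 under 9. The angiomotin gene AMOTL2 had 0.84, THBS1, which encodes thrombospondin, 1.10 and the matricellular gene CCN1 1.33. THBS1 was higher by 0.54 in vehicle and lower by -0.55 in treated libraries, and CCN1 higher by 0.79 and lower by -0.53. The ERK phosphatase DUSP5 had 1.09, the receptor kinase EPHA2 0.70, the semaphorin SEMA7A 1.53 and C1orf116 1.27. The histone gene H4C11, a member of a family of similar copies, had 0.85, and the pseudogene SLC2A3P1 had a fitted value of 9.18, which is no bound since it was listed at 0 in the time-course vehicle. The remaining entry has no symbol. At an unadjusted p of 0.05, 1199 genes passed.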

How the results depend on the processing

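For the vehicle pairs, the count of calls stayed within 1.5 times the 3207 under DESeq2 (3035), RLE factors (3183), no low-count filter (4115), coding genes only (3294), all 14 libraries (2891), thinning to the shallowest library (3172), limma with GC correction (3281) and whole expected counts only, an alternative chosen after seeing the data (2170). Leaving out a library gave 891 to 5888. For the treated pairs the 5004 calls became 2763 with all 14 libraries and 3296 with whole expected counts only, and 3291 to 5953 with a library left out. There, total counts gave 3174 higher and 1792 lower and upper quartile factors 2615 and 2327. For the difference between both contrasts the 12 calls became 47 with DESeq2, 19 with GC correction and replicate block, 3 with all 14 libraries, 177 without a low-count filter, 7 with total counts and 5 to 145 with a library left out. The cause was not tested, except that fewer genes were tested with whole counts and fewer samples with a library left out.

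Between the vehicle pairs, the deviations of like-numbered replicates correlated at -0.00995. This value cannot show whether libraries within a set were paired by replicate number. With a replicate block the calls were 3377 in vehicle, 5145 in treated libraries and 6 for the difference. The share of TPM in the 25 most abundant genes was 51.3%, and became 13.8% over coding genes, 13.6% without mitochondrial and structural RNA genes and 13.1% by CPM. Over named genes and settings, 2164 values kept direction and side of the threshold, 113 no longer passed, 6 newly passed (all HNRNPU, up to 0.37 with GC correction) and none reversed. With 2 libraries per group and the smaller depth of the Nutlin set, small differences in low genes were not detectable.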
